A study of Mus musculus with 30 samples.

Results

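The genes described here are 34 members of 2 related stress programs, measured in mouse embryonic fibroblasts in which p53 can be switched on. They comprise 20 genes of the amino acid response that depends on the transcription factor ATF4, and 14 genes of the endoplasmic reticulum (ER) that fold, oxidise or dispose of secretory proteins. The genes were listed by name, with earlier results of these data known, and each was read from the probe set whose signal averaged highest across the 30 arrays. All 34 were found among the 18194 genes with a probe set of a single gene symbol, and all 34 passed the filter on low signal, which left 12675 tested genes.

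The integrated stress response begins when a kinase phosphorylates the translation factor eIF2alpha, which lowers general translation and favours that of ATF4. ATF4 then raises genes for amino acid synthesis and import together with feedback regulators such as Trib3 and Ddit3. The unfolded protein response shares the ATF4 branch through the ER kinase PERK, but its chaperone genes are driven mainly by ATF6 and XBP1 through the ER stress response element. The 2 programs can therefore move together or apart, and both sets of genes were read side by side in every comparison.

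The cells were p53 LSL/LSL fibroblasts (a stop cassette flanked by loxP sites keeps each p53 allele silent) of strain C57BL/6 x 129SvJ, taken from embryos in mid-gestation. In the time course, cells were exposed to AdenoCre, an adenovirus with Cre recombinase that restores p53, or to AdenoGFP for 24 h, and then to 500 nM doxorubicin, a DNA-damaging drug, for 1, 3, 6 or 9 h. The 0 h cells of both viruses were left without the drug, and each virus and time had 1 array. The viruses differ in Cre and GFP as well as in p53, and no cells had Cre without p53, so these cannot be told apart. In 2 further experiments every group, controls included, had received AdenoCre for 24 h, siRNA for 24 h and 100 nM doxorubicin for 13 h. The lincP21KD experiment had 3 arrays with siRNA against p53 (siP53), 3 with siRNA against lincRNA-p21, a long noncoding RNA induced by p53 (siLincp21), and 2 with a scrambled control siRNA (siControl). The hnRNPKKD experiment had 3 arrays each with siRNA against hnRNP-K, an RNA-binding protein (siHnrnpk), with siP53, with siLincp21 and with siControl. Nothing in the labels says that replicates came from separate cultures, so p-values measure the spread between these arrays, which may be technical. The cells were measured in bulk, so fewer cells that use a gene and less RNA per cell cannot be told apart.

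Values were log2 signals, and levels are compared here only within an experiment and within a probe set. All 9 fibroblast markers exceeded the filter, as did 3 of 5 leukocyte, 1 of 4 endothelial, 2 of 4 epithelial, 3 of 4 muscle, 4 of 4 neural and 1 of 2 adipocyte markers. Below it were Ptprc, Adgre1, Pecam1, Cdh5, Tek, Cdh1, Krt14, Myod1 and Adipoq. Of the markers of other cell types above it, Tubb3 was called in 6 of the 6 comparisons with a control, Map2 in 5, Csf1r, Cd68 and Fabp4 in 3 each and Kdr in 1. Lyz2, Epcam, Krt5, Myog, Des, Ckm, Gfap and Sox10 were above it and called in none. The part of these markers in the results was not tested. The p53 target Cdkn1a, an inhibitor of cell cycle kinases, was 3.85 ± 0.15 log2 higher with AdenoCre (SE, limma, adjusted p = 3.5e-05). With siP53 its log2 difference was -2.07 ± 0.11 in lincP21KD (limma adjusted p = 4.91e-06) and -2.64 ± 0.18 in hnRNPKKD (limma adjusted p = 4.39e-07). Hnrnpk had a log2 difference of -3.51 ± 0.35 with siHnrnpk (limma adjusted p = 2.12e-05). Trp53 and lincRNA-p21 themselves were not analysed here.

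The promoters of both groups were searched for motifs of these programs. The members were listed by name as genes of the same programs, so the counts describe the lists and are not an independent test. RefSeq promoter windows (GRCm38.p6) from 250 bases before to 50 bases after the start were found for 32 of the 34 genes, and not used here for Eif4ebp1 and Slc7a5. The ER stress response element, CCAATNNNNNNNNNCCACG on either strand, occurred in the windows of 7 of 14 ER genes (Calr, Canx, Creld2, Dnajc3, Hsp90b1, Hspa5 and Pdia6) and in 0 of 18 ATF4-type genes. In all 27025 genes with a window it occurred in 0.137%. The core of the C/EBP-ATF response element, TGATGNAA on either strand, occurred in 5 of 18 ATF4-type genes (Asns, Chac1, Nupr1, Trib3 and Vldlr) and in 1 of 14 ER genes, Herpud1, against 4.51% of all genes. A match describes letters only. Of these genes with a TGATGNAA match, the stretches of Vldlr and Nupr1 are left out. The stretches around the matches of the other 4 genes are shown, with the match in capitals on either strand:
Asns, chr6:7693185-7693292, minus strand: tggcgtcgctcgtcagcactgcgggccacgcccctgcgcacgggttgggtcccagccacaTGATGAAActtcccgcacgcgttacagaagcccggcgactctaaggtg
Chac1, chr2:119350992-119351116, plus strand: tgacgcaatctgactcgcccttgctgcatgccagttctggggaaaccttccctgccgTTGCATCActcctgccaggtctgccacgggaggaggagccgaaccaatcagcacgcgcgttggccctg
Trib3, chr2:152344036-152344106, minus strand: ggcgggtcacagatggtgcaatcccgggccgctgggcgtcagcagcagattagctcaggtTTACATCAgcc
Herpud1, chr8:94386257-94386384, plus strand: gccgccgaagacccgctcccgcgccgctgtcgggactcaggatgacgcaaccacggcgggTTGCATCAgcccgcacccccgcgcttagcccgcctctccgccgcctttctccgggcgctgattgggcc
The match began 23 bases before the start in Asns, 193 in Chac1 and 112 in Herpud1, and 14 bases after it in Trib3. Of the 7 ER genes with a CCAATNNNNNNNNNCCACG match, the stretches of Calr, Canx and Creld2 are left out. Those of the other 4 are shown, with the matches in capitals:
Hspa5, chr2:34771965-34772103, plus strand: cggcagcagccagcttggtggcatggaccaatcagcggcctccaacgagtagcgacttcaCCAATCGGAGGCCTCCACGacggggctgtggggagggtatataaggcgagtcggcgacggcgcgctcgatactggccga
Hsp90b1, chr10:86705473-86705694, minus strand: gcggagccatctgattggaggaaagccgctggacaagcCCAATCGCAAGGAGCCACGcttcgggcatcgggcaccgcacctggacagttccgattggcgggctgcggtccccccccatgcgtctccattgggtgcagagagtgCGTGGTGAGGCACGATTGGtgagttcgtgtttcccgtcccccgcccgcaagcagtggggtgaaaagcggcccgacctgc
Dnajc3, chr14:118937767-118937905, plus strand: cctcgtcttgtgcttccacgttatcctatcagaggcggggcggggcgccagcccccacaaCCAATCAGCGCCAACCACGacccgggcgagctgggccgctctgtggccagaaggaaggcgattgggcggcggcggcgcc
Pdia6, chr12:17266431-17266569, plus strand: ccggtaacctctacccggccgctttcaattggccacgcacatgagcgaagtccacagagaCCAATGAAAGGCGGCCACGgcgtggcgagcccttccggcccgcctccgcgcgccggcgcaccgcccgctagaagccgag
The Hspa5 match lay 65 bases before the start, and Hsp90b1 carried 2 matches, at 212 and 107 bases before it.

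In the time course, many ATF4-type genes were lower with AdenoCre than with AdenoGFP, while limma called no chaperone or disulfide isomerase gene. Of the 20 ATF4-type genes 8 fell and none rose in AdenoCre against AdenoGFP, and the median log2 difference was -0.28. Among the 14 ER genes 1, Herpud1, fell, and the median was 0.07, beside 0.04 over all tested genes. At limma adjusted p under 0.05, 6.24% of all tested genes were lower and 12.9% were higher. Leaving out a time lowered the count of called members, 9 with all times, to 3 without 3 h, 4 without 6 h and 4 without 9 h. In these fits 9.05%, 11.4% and 11.9% of all tested genes were called in either direction, fewer than with all times. The median difference of the ATF4-type genes was already -0.24 in cells without doxorubicin, with 19 of 20 genes negative. It was -0.07 at 1 h, -0.17 at 3 h, -0.36 at 6 h and -0.44 at 9 h. The ER medians stayed between -0.03 and 0.06 at the 5 times. Over all 12675 tested genes the medians were 0.03, 0.12, 0.06, 0.08 and -0.03 at 0, 1, 3, 6 and 9 h. At 0 h 5675 of these genes were negative. Each time had 1 array per virus, so shifts of a whole array enter the members' medians too.

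**Figure D1:**
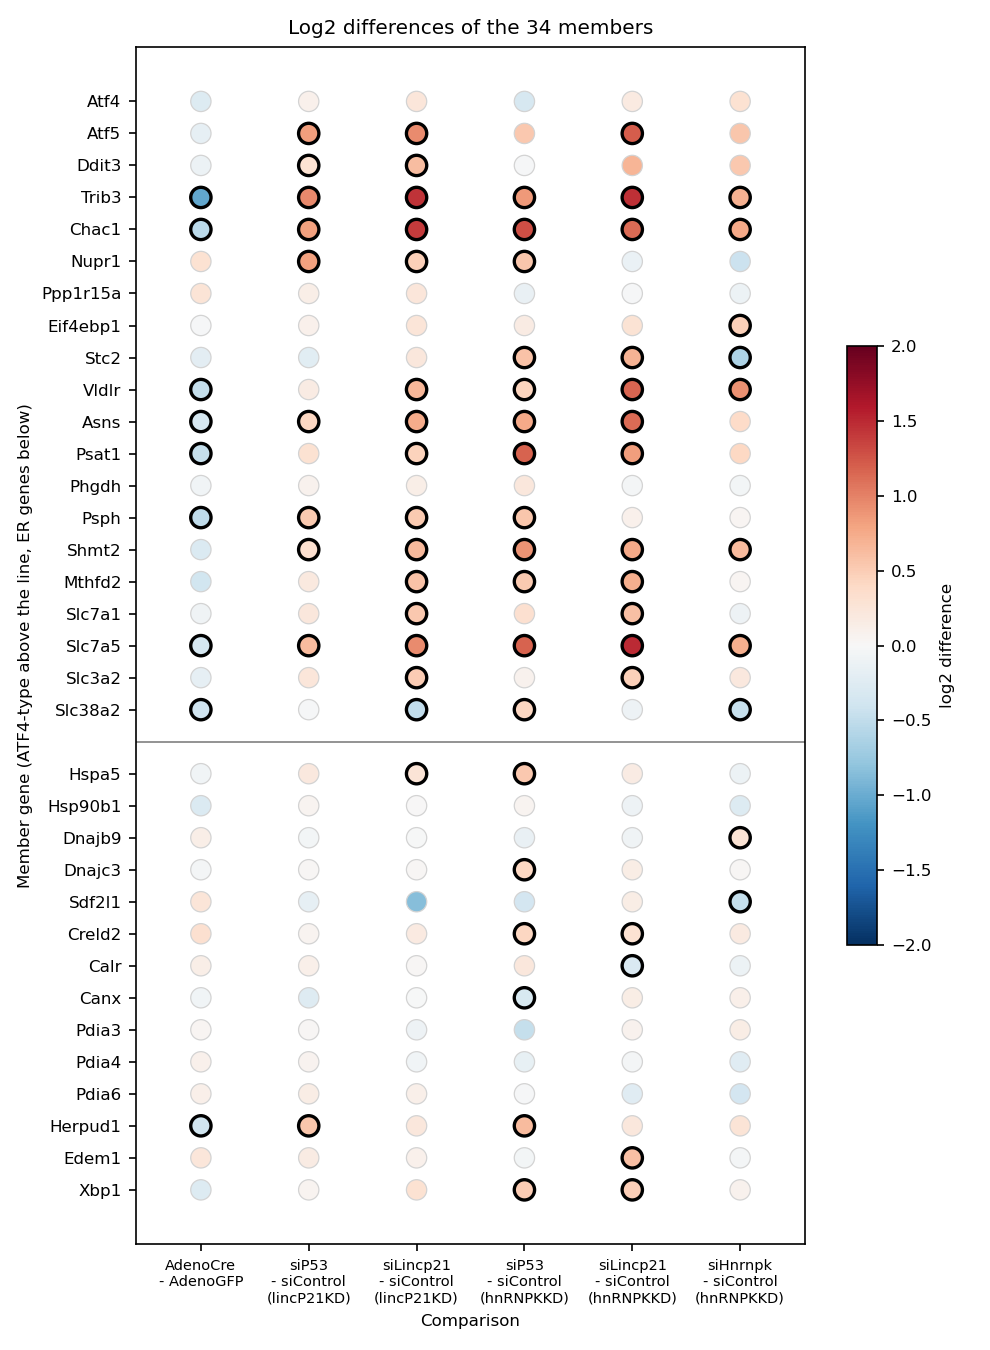
Log2 differences of the 34 members (rows, ATF4-type genes above the line and ER genes below) in 6 comparisons (columns), as colour from blue (lower) to red (higher). Black rims mark genes called at an adjusted p under 0.05 by limma, and they lie mostly above the line, with Trib3 rimmed in all 6 columns.

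Among the regulators, Trib3, a pseudokinase that feeds back on ATF4, had log2 signals of 9.30, 10.00, 8.61, 8.08 and 7.81 at 0, 1, 3, 6 and 9 h with AdenoCre, against 10.21, 10.53, 9.53, 9.31 and 9.43 with AdenoGFP. The AdenoCre array was the lower at each of the 5 times, as for 11.1% of all tested genes, while 21.1% were higher at each. The difference was -1.04 ± 0.15 log2 (SE, limma, adjusted p = 0.00337). Chac1, which degrades glutathione, had 9.90, 10.95, 10.10, 9.55 and 9.29 with AdenoCre, against 10.45, 10.84, 10.77, 10.18 and 10.26 with AdenoGFP. AdenoCre was lower at 4 of 5 times and the higher at 1 h, and the difference was -0.54 ± 0.14 (adjusted p = 0.0339). Vldlr, a lipoprotein receptor that ATF4 raises, had 9.81, 9.96, 9.91, 9.69 and 9.46 with AdenoCre, against 10.24, 10.66, 10.28, 10.15 and 9.91 with AdenoGFP. It was lower at all 5 times and fell by 0.48 ± 0.08 (adjusted p = 0.00814). Ddit3, which encodes the transcription factor CHOP, had 9.81, 10.22, 9.93, 9.57 and 9.70 with AdenoCre, against 10.04, 10.20, 9.99, 9.78 and 9.82 with AdenoGFP. The Ddit3 ranges overlapped and its difference of -0.12 ± 0.08 missed the test (adjusted p = 0.342). Atf4 itself had a difference of -0.27 (adjusted p = 0.0523), with AdenoCre lower at all 5 times. A second Atf4 probe set read -0.75 in a fit over probe sets (adjusted p = 0.00387).

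Of the 6 enzymes of amino acid and one-carbon metabolism, 3 fell and none rose. Asns, which makes asparagine, had 12.44, 12.49, 12.59, 12.31 and 12.10 with AdenoCre, against 12.84, 12.73, 12.80, 12.68 and 12.60 with AdenoGFP. AdenoCre was lower at all 5 times, as for 11.1% of all tested genes, and the difference was -0.34 ± 0.08 (adjusted p = 0.0242). Psat1, the middle step of serine synthesis, had 12.27, 12.23, 12.11, 12.33 and 12.11 with AdenoCre, against 12.51, 12.64, 12.84, 12.97 and 12.52 with AdenoGFP, and fell by 0.48 ± 0.10 (adjusted p = 0.0121). Psph, the last step, had 10.59, 10.74, 10.82, 10.55 and 10.26 with AdenoCre, against 11.07, 10.96, 11.27, 11.22 and 11.00 with AdenoGFP, and fell by 0.51 ± 0.10 (adjusted p = 0.0109). Both genes were likewise lower with AdenoCre at all 5 times. Phgdh, the first step, had a difference of -0.07 and missed the test. Of the transporters, Slc7a5 (LAT1, which imports large neutral amino acids) fell by 0.35 ± 0.10 (adjusted p = 0.0396) and Slc38a2 (a neutral amino acid importer) by 0.39 ± 0.10 (adjusted p = 0.027). Slc3a2, the partner chain of Slc7a5, was lower at all 5 times by a difference of -0.18 and missed the test.

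**Figure D2:**
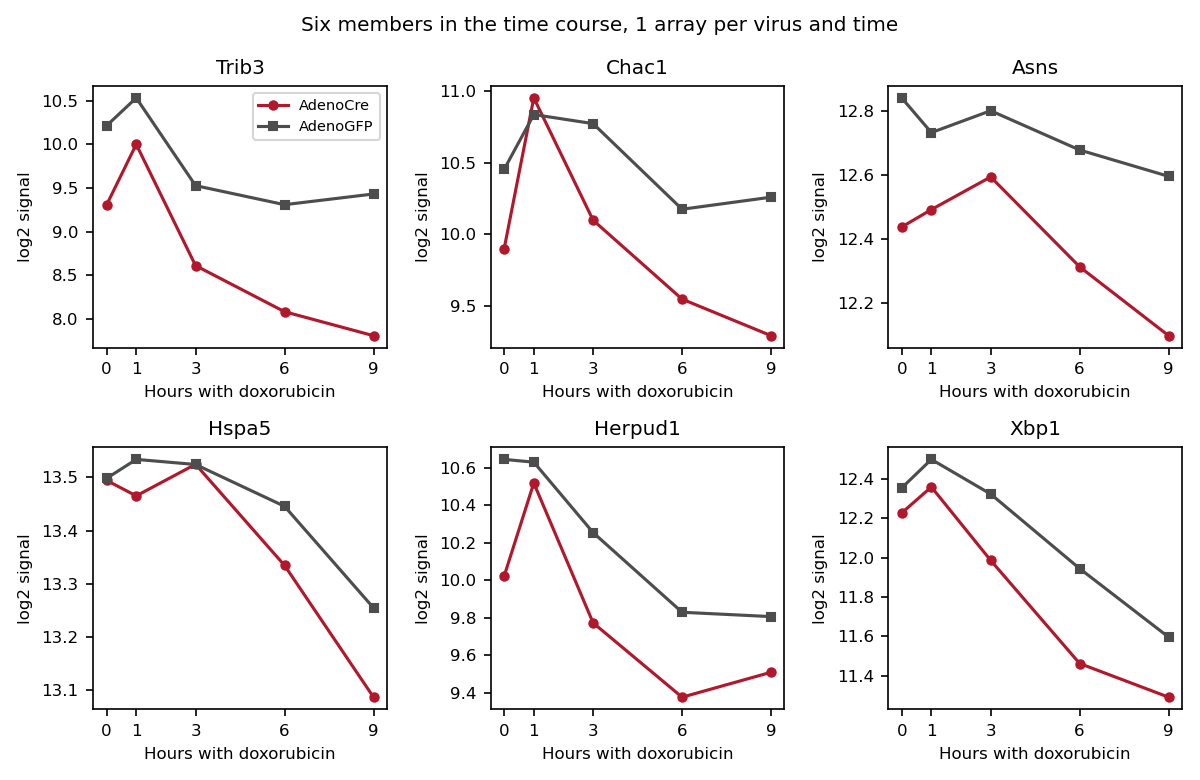
Log2 signal (vertical axis, scaled for each gene) by hours with doxorubicin for 6 members, with 1 array per virus and time (red circles AdenoCre, grey squares AdenoGFP). Trib3, Asns and Herpud1 lie lower with AdenoCre at all 5 times, and Hspa5 nearly coincides until 3 h.

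Of the ER genes, Hspa5 (the chaperone BiP) had 13.49, 13.47, 13.52, 13.33 and 13.09 with AdenoCre, against 13.498, 13.53, 13.52, 13.45 and 13.25 with AdenoGFP. The 2 viruses overlapped and the difference was -0.07 ± 0.08 (adjusted p = 0.564). Herpud1, which helps ER-associated degradation, had 10.02, 10.52, 9.77, 9.38 and 9.51 with AdenoCre, against 10.65, 10.63, 10.25, 9.83 and 9.81 with AdenoGFP. AdenoCre was lower at all 5 times, with a difference of -0.39 ± 0.10 (adjusted p = 0.025). Creld2, Calr and Pdia6, which fold or oxidise ER proteins, were higher with AdenoCre at all 5 times, by 0.32, 0.14 and 0.12 in log2, and all missed the test. These 3 of 14 ER genes are a share near that of all tested genes higher at each time (21.1%). Hsp90b1 and Xbp1, like Herpud1, were lower with AdenoCre at all 5 times, as were 11.1% of all tested genes. Their differences of -0.30 for Hsp90b1 and -0.28 for Xbp1 missed the test. Slopes on hours were called in AdenoCre for 3 members, against 1.45% of all tested genes falling and 3.94% rising. Trib3 fell by 0.22 ± 0.05 log2 per hour (adjusted p = 0.0292), Mthfd2, a mitochondrial one-carbon enzyme, by 0.12 ± 0.02 (adjusted p = 0.00807), and Xbp1, the ER stress transcription factor, by 0.12 ± 0.02 (adjusted p = 0.00765). Without the 9 h arrays limma called 0 of these slopes, and 2.11% of all genes. In AdenoGFP limma called none of the members' slopes, and 0.00789% of all genes, at adjusted p under 0.05. At an unadjusted p under 0.05, 7 members passed. The test of slope differences between viruses called none either, and 0.181% of all genes, with 1 member at an unadjusted p under 0.05. The shares of all genes at the unadjusted level are not given here, so the members' counts at that level cannot be judged as many or few.

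In the lincP21KD experiment many ATF4-type genes were higher with both siRNAs than with siControl. With siP53, 9 of 20 ATF4-type genes rose and none fell against siControl, with a median log2 difference of 0.27, while 1 of 14 ER genes rose and the ER median was 0.06. Of all tested genes 7.01% were higher and 5.74% lower, with a median of 0.02. With siLincp21, 14 of 20 ATF4-type genes rose and 1, Slc38a2, fell, with a median of 0.53. The ER median was 0.03 with siLincp21 and 1 of 14 rose, against 7.47% of all genes higher and 4.39% lower. Both comparisons use the same 2 siControl arrays. All siP53 arrays lay above both controls for 14 ATF4-type and 6 ER genes and below them for 0 and 1 (25.1% and 21.1% of all genes). All siLincp21 arrays lay above for 17 and 5 and below for 1 and 1 (25.4% and 20.2%). Without the first siControl array 3 ATF4-type genes passed with siP53 and 5 with siLincp21, and no ER gene passed, with 4.89% and 2.26% of all tested genes called in either direction. The third siLincp21 array stood apart for several members, among them Sdf2l1. It read 9.78 for Trib3 (8.78 and 8.84 in the other arrays), 10.83 for Vldlr (10.28 and 10.19) and 8.39 for Pdia4 (9.38 and 9.50). Without it 12 ATF4-type genes rose and 1 fell with siLincp21, and 1 ER gene rose and 1 fell, with 10.5% of all genes called. Over all alternatives the Trib3 difference with siLincp21 ranged from 1.12 to 1.62.

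**Figure D3:**
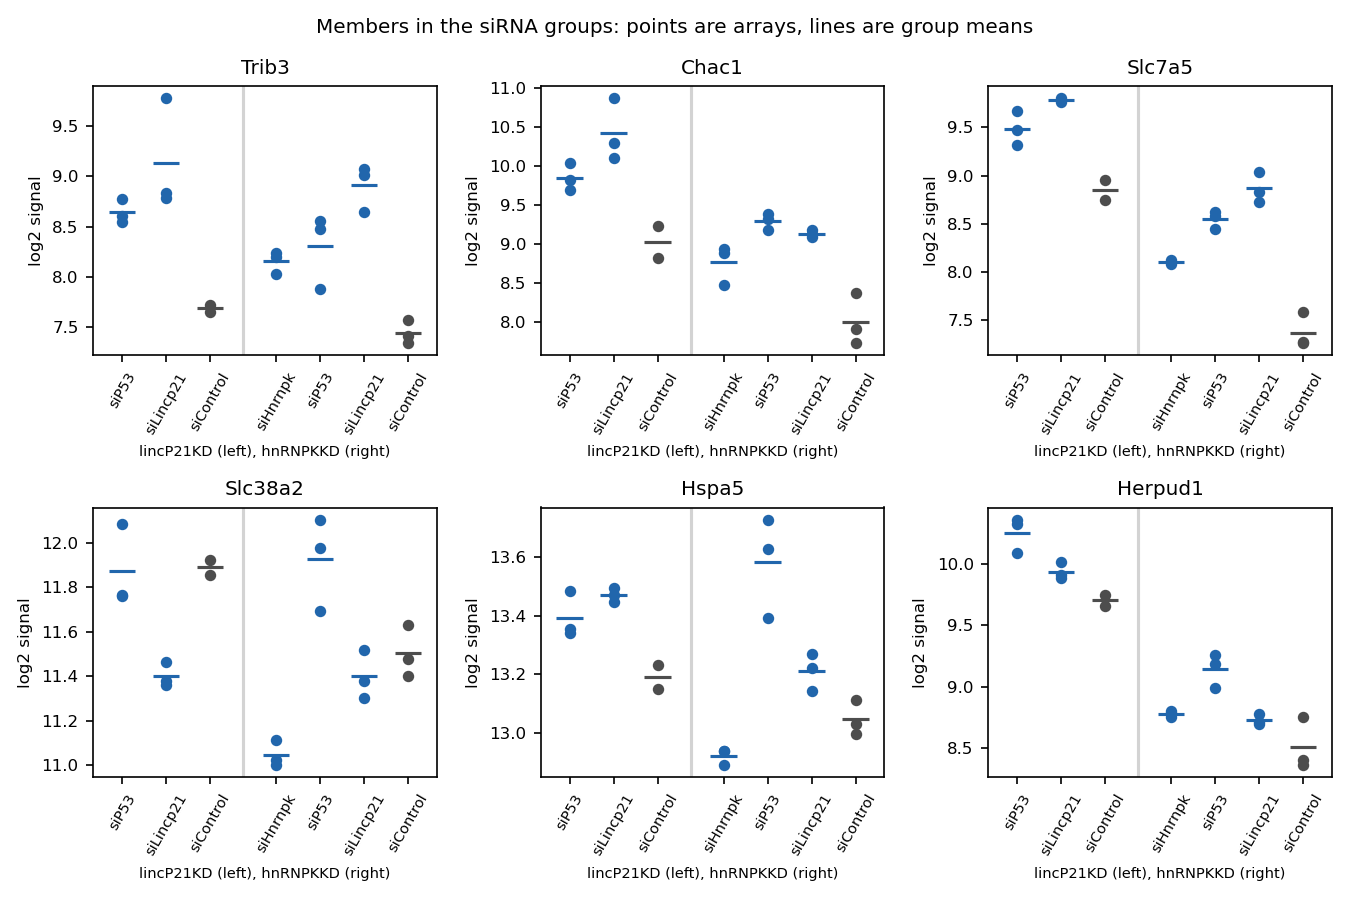
Log2 signal (vertical axis, scaled for each gene) of 6 members in the siRNA groups, with points for arrays and lines for group means, blue for siRNA against a target and grey for siControl, lincP21KD left and hnRNPKKD right of the line. Trib3, Chac1 and Slc7a5 lie above siControl in every siRNA group, while Slc38a2 lies below it with siLincp21 in lincP21KD and with siHnrnpk.

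Trib3 had 8.55, 8.61 and 8.78 with siP53 and 8.78, 8.84 and 9.78 with siLincp21, against 7.72 and 7.66 with siControl. All 6 arrays lay above both controls, with differences of 0.95 ± 0.24 for siP53 (SE, limma, adjusted p = 0.0293) and 1.44 ± 0.24 for siLincp21 (adjusted p = 0.00567). Chac1 had 9.69, 9.83 and 10.04 with siP53 and 10.30, 10.10 and 10.87 with siLincp21, against 8.82 and 9.23 with siControl. The groups did not overlap, and the differences were 0.82 ± 0.21 (adjusted p = 0.0284) for siP53 and 1.40 ± 0.21 (adjusted p = 0.00325) for siLincp21. Ddit3 had 10.34, 10.30 and 10.49 with siP53 and 10.69, 10.63 and 10.76 with siLincp21, against 10.03 and 10.12 with siControl. The groups did not overlap, and the differences were 0.30 ± 0.08 (adjusted p = 0.043) and 0.62 ± 0.08 (adjusted p = 0.00252). The Ddit3 call with siP53 held in 4 of 14 alternative analyses (other scaling, filters, probe set choice, variance models, a block or a left-out array), with adjusted p values up to 0.27, and that with siLincp21 in 14 of 14. Atf5, a transcription factor under ATF4 control, had 9.56, 9.68 and 9.60 with siP53 and 9.86, 9.83 and 9.49 with siLincp21, against 8.62 and 8.96 with siControl. It rose by 0.83 with siP53 and 0.94 with siLincp21, clear of both controls. Nupr1, a stress-induced nuclear protein, had 10.91, 11.07 and 11.13 with siP53, against 10.17 and 10.26 with siControl, and rose by 0.82. Atf4 passed the test with neither, at 0.10 and 0.25. Its siLincp21 arrays, at 12.75, 12.66 and 12.80, lay above both controls, at 12.46 and 12.52, as for 25.4% of all tested genes.

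Asns had 11.61, 11.71 and 11.66 with siP53 and 11.99, 11.88 and 12.02 with siLincp21, against 11.19 and 11.27 with siControl. No siRNA array reached down to the controls, and the differences were 0.43 ± 0.08 (adjusted p = 0.00558) and 0.73 ± 0.08 (adjusted p = 0.000883). Psph rose by 0.53 and 0.52, Shmt2 by 0.32 and 0.65, while Mthfd2 and Psat1 were called with siLincp21 at 0.58 and 0.46. The Shmt2 call with siP53 held in 5 of 14 alternatives. Slc7a5 had 9.32, 9.47 and 9.67 with siP53 and 9.79, 9.77 and 9.80 with siLincp21, against 8.74 and 8.95 with siControl. It rose in both, by 0.64 ± 0.11 (adjusted p = 0.00391) and 0.94 ± 0.11 (adjusted p = 0.00124). Slc3a2 and Slc7a1, a cationic amino acid transporter, rose by 0.51 and 0.54 with siLincp21. Slc38a2 had 11.38, 11.47 and 11.36 with siLincp21, against 11.92 and 11.85 with siControl. It fell by 0.49 ± 0.10 (adjusted p = 0.0159), while the other transporters rose. With the mean of its probe sets Slc38a2 had a difference of -0.19 (adjusted p = 0.176), and its call was lost in 4 of 14 alternatives.

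Hspa5 had 13.36, 13.48 and 13.34 with siP53 and 13.45, 13.47 and 13.49 with siLincp21, against 13.15 and 13.23 with siControl. The arrays did not overlap, though the differences were small, at 0.20 ± 0.08 for siP53 (adjusted p = 0.121) and 0.28 ± 0.08 for siLincp21 (adjusted p = 0.0429), a call that held in 5 of 14 alternatives. Herpud1 rose by 0.55 ± 0.10 with siP53 (adjusted p = 0.00488) and had 10.09, 10.36 and 10.32, against 9.66 and 9.75 with siControl. The 3 disulfide isomerases Pdia3, Pdia4 and Pdia6 passed in neither comparison. Sdf2l1, a chaperone partner, had 7.30, 7.56 and 6.23 with siLincp21, against 7.80 and 7.97 with siControl, and did not pass (adjusted p = 0.101). Set against each other, siP53 minus siLincp21 called 2 members higher, Slc38a2 at 0.47 and Herpud1 at 0.32, and 7 lower, among them Vldlr at -0.50, Mthfd2 at -0.39, Ddit3 at -0.31 and Asns at -0.30 (9.21% of all genes higher and 11.2% lower). Trib3 at -0.49 did not pass that test.

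**Figure D4:**
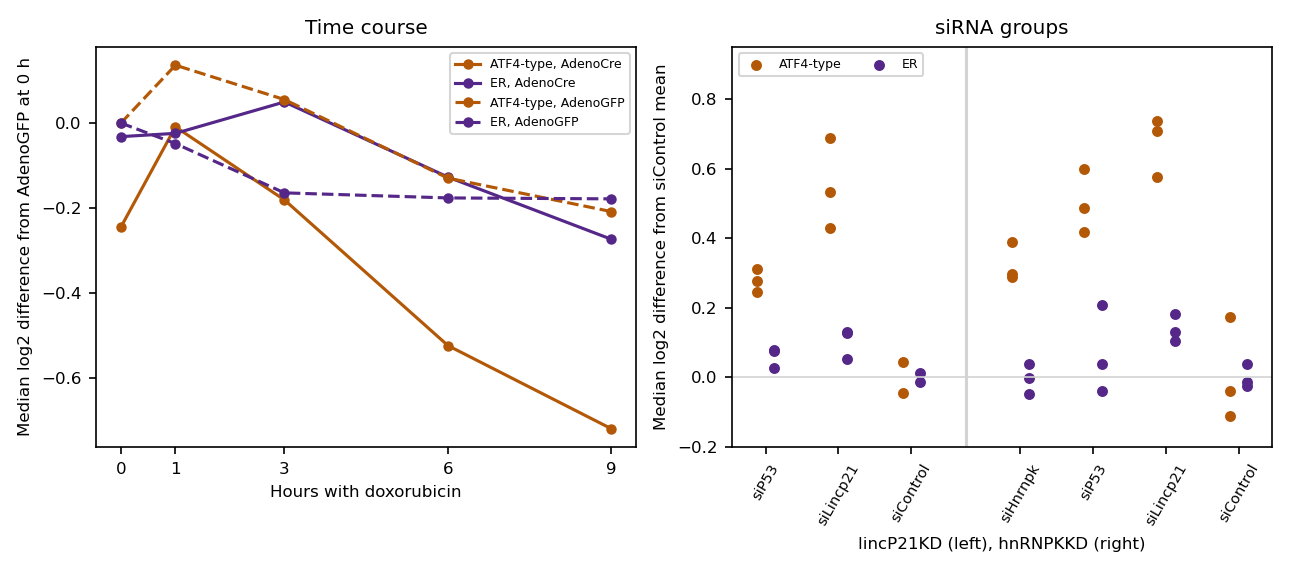
Median log2 difference over the 20 ATF4-type genes (orange) and the 14 ER genes (purple), on the left by hours with doxorubicin relative to AdenoGFP at 0 h, on the right for each siRNA array relative to its siControl mean. The AdenoCre ATF4-type median reached -0.72 at 9 h, and in the siRNA groups every orange point of a targeted siRNA lies above the purple points of its group.

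The hnRNPKKD experiment gave larger numbers of calls over all genes, so the members' counts need to be read against them. With siP53, 12 of 20 ATF4-type genes rose and none fell, with a median of 0.53, while 5 of 14 ER genes rose and 1 fell, with a median of 0.02. Here 19.3% of all tested genes were higher and 19.2% lower. With siLincp21, 12 ATF4-type genes rose and none fell, with a median of 0.68, and 3 ER genes rose and 1 fell, with a median of 0.15, against 17.2% higher and 11.8% lower. With siHnrnpk, 6 ATF4-type genes rose and 2 fell, with a median of 0.35, and 1 ER gene rose and 1 fell, with a median of -0.01, against 14.1% higher and 12.8% lower. The 3 comparisons share the same 3 siControl arrays. All siHnrnpk arrays lay above the controls for 12 ATF4-type genes and 1 ER gene and below them for 3 and 5 (25.2% and 24.2% of all genes). For siP53 the counts were 9 and 5 above and 0 and 1 below (21.2% and 20.8%), and for siLincp21 14 and 7 above and 0 and 1 below (25.8% and 21.3%).

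Trib3 had 8.20, 8.24 and 8.03 with siHnrnpk, 8.48, 7.89 and 8.56 with siP53, and 9.02, 8.65 and 9.07 with siLincp21, against 7.41, 7.58 and 7.34 with siControl. Each group lay above the controls, and the differences were 0.71 ± 0.17 (SE, limma, adjusted p = 0.00709), 0.86 ± 0.17 (adjusted p = 0.00135) and 1.47 ± 0.17 (adjusted p = 4.58e-05). Chac1 had 8.94, 8.89 and 8.48 with siHnrnpk, 9.33, 9.19 and 9.38 with siP53, and 9.13, 9.09 and 9.18 with siLincp21, against 7.91, 8.38 and 7.73 with siControl. No treated array overlapped the controls, and Chac1 rose by 0.76, 1.29 and 1.13. Atf4 passed in none of the 3, at 0.31, -0.34 and 0.17. Its siP53 arrays were 11.08, 11.82 and 10.31, against 11.21, 11.58 and 11.44 with siControl, so they lay on both sides of the controls. Atf5 had 9.12, 8.94 and 8.73 with siLincp21, against 7.40, 7.95 and 7.78 with siControl, and rose by 1.22 ± 0.22 (adjusted p = 0.00119). Vldlr had 9.90, 9.84 and 9.81 with siHnrnpk and 10.14, 9.97 and 10.19 with siLincp21, against 8.98, 8.93 and 8.90 with siControl, and rose by 0.91 and 1.16 without overlap.

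Ddit3 had 9.38, 9.52 and 9.47 with siHnrnpk, 8.70, 9.89 and 8.14 with siP53, and 9.73, 9.81 and 9.27 with siLincp21, against 8.63, 9.12 and 9.03 with siControl. The siP53 arrays were both the highest and the lowest, and no comparison passed, with differences of 0.53 ± 0.33 (adjusted p = 0.271), -0.02 ± 0.33 (adjusted p = 0.975) and 0.67 ± 0.33 (adjusted p = 0.147). The second siP53 array stood apart from the other 2 here. Without it limma called Ddit3 at -0.50 (adjusted p = 0.0426), Atf4 at -0.71 (adjusted p = 0.00769) and Ppp1r15a, the eIF2alpha phosphatase subunit GADD34, at -0.33 (adjusted p = 0.0179). The same omission also called Pdia3 at -0.81, Sdf2l1 at -0.55 and Pdia4 at -0.37 as lower, and Slc7a1 at 0.45, Calr at 0.30 and Eif4ebp1 at 0.28 as higher, with 51.7% of all tested genes called. Without the third siP53 array limma called Atf5 at 0.79.

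Asns had 10.52, 10.66 and 10.60 with siHnrnpk, 10.97, 11.19 and 10.73 with siP53, and 11.42, 11.40 and 11.20 with siLincp21, against 10.01, 10.45 and 10.15 with siControl. It rose by 0.76 ± 0.13 with siP53 (adjusted p = 0.000688) and 1.14 ± 0.13 with siLincp21 (adjusted p = 6.19e-05). With siHnrnpk its difference of 0.39 ± 0.13 missed the test (adjusted p = 0.0507), and with the replicate numbers as a block it passed (limma adjusted p = 0.0198). Psat1 had 12.41, 11.80 and 12.47 with siP53, against 10.84, 11.25 and 11.03 with siControl, and rose by 1.19 ± 0.17 (adjusted p = 0.000141). Shmt2, the mitochondrial serine hydroxymethyltransferase, had 10.59, 10.65 and 10.49 with siHnrnpk, 10.84, 10.86 and 10.85 with siP53 and 10.69, 10.71 and 10.71 with siLincp21, against 9.77, 10.31 and 9.75 with siControl. It rose in all 3 comparisons, by 0.63 with siHnrnpk, 0.91 with siP53 and 0.76 with siLincp21. Slc7a5 had 8.10, 8.12 and 8.08 with siHnrnpk, 8.58, 8.45 and 8.62 with siP53, and 8.83, 8.73 and 9.04 with siLincp21, against 7.26, 7.58 and 7.27 with siControl. It rose by 0.73 ± 0.11, 1.18 ± 0.11 and 1.50 ± 0.11 (adjusted p = 0.000386, 5.79e-06 and 1.99e-06). Slc38a2 had 11.11, 11.02 and 11.00 with siHnrnpk and 11.98, 11.69 and 12.10 with siP53, against 11.63, 11.48 and 11.40 with siControl, so it lay below the controls with one and above with the other. It fell by 0.46 ± 0.11 with siHnrnpk (adjusted p = 0.00953) and rose by 0.42 ± 0.11 with siP53 (adjusted p = 0.0104).

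Stc2, a secreted glycoprotein, had 6.90, 6.86 and 6.86 with siHnrnpk, 8.06, 7.86 and 8.30 with siP53 and 8.16, 7.999 and 8.36 with siLincp21, against 7.55, 7.41 and 7.49 with siControl. The siHnrnpk arrays were all below the controls and the others all above. Stc2 fell by 0.61 ± 0.12 with siHnrnpk (adjusted p = 0.00223) and rose by 0.59 with siP53 and 0.69 with siLincp21.

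Among the ER genes Hspa5 had 12.94, 12.89 and 12.94 with siHnrnpk, 13.63, 13.39 and 13.73 with siP53, and 13.22, 13.14 and 13.27 with siLincp21, against 13.03, 13.11 and 13.00 with siControl. It rose by 0.54 ± 0.10 with siP53 (adjusted p = 0.00073), and the differences of -0.12 and 0.17 with siHnrnpk and siLincp21 did not pass. Herpud1 had 9.26, 9.19 and 8.99 with siP53, against 8.41, 8.75 and 8.37 with siControl. All siP53 arrays lay above the controls, and Herpud1 rose by 0.64 ± 0.11 (adjusted p = 0.000635). Dnajc3, an inhibitor of eIF2alpha kinases, and Creld2 rose with siP53 by 0.42 and 0.44, while Canx, a lectin chaperone, fell by 0.33. Xbp1 rose by 0.51 with siP53 and 0.50 with siLincp21. Edem1, which directs misfolded glycoproteins to disposal, had 9.93, 9.83 and 10.01 with siLincp21, against 9.37, 9.27 and 9.33 with siControl, and rose by 0.60 ± 0.08 (adjusted p = 0.000161). Calr fell by 0.31 with siLincp21, a call that held in 9 of 15 alternatives. With siHnrnpk, Dnajb9, a co-chaperone of BiP, rose by 0.30 ± 0.09 and Sdf2l1 fell by 0.48 ± 0.14.

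The siRNAs were also tested against each other. In siHnrnpk minus siP53, 5 members were higher and 17 lower (22.9% and 22.5% of all genes), with Stc2 at -1.20, Nupr1 at -0.99, Slc38a2 at -0.88, Psat1 at -0.78 and Hspa5 at -0.66. In siHnrnpk minus siLincp21, 1 was higher and 12 lower (12.2% and 15.4% of all genes), with Stc2 at -1.30, Slc7a5 at -0.76, Trib3 at -0.76 and Asns at -0.75. In siP53 minus siLincp21, 7 were higher, among them Nupr1 at 0.69, Calr at 0.52 and Hspa5 at 0.37, and 9 lower, among them Vldlr at -0.71, Edem1 at -0.66 and Trib3 at -0.61 (17.5% and 21.3% of all genes).

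The signed effect of siP53, each against its own controls, was higher in hnRNPKKD than in lincP21KD for 5 members. Of all genes 7.14% were higher and 7.35% lower. The differences were 0.88 ± 0.23 log2 for Psat1, 0.82 ± 0.20 for Stc2 and 0.58 ± 0.17 for Shmt2. They were 0.54 ± 0.16 for Slc7a5 and 0.46 ± 0.14 for Xbp1, whose call held in 9 of 19 alternatives. For Stc2 the siP53 mean was below siControl in lincP21KD (6.07 against 6.30) and above it in hnRNPKKD (8.07 against 7.48). The siLincp21 effect was larger in hnRNPKKD for Slc7a5, at 0.56 ± 0.16, and Edem1, at 0.50 ± 0.11 (4.63% higher and 3.51% lower). Without the second siP53 array of hnRNPKKD 13 members passed for siP53 beside 34.3% of all tested genes, and without the second siControl array of lincP21KD 0 passed beside 7.38%. For Trib3 these differences were -0.09 ± 0.31 and 0.03 ± 0.31, and neither passed.

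Related genes outside the 34 members were counted by list. Of 18 other genes of ATF4 and amino acid metabolism none rose and 8 fell with AdenoCre (12.9% and 6.24% of all tested genes), with a median of -0.33. The 8 included Aldh1l2, a mitochondrial folate enzyme, at -0.68 and Gpt2, an alanine aminotransferase, at -0.87. With siP53 and siLincp21 in lincP21KD 7 and 9 of these 18 rose and 1 fell in each. Of all tested genes 7.01% rose and 5.74% fell there with siP53, and 7.47% and 4.39% with siLincp21. In hnRNPKKD 9 rose and 2 fell with each of the same siRNAs (19.3% and 19.2% of all tested genes with siP53, 17.2% and 11.8% with siLincp21). But with siHnrnpk 2 rose and 5 fell (14.1% and 12.8%), with Gpt2 at -1.40 and Aldh18a1, which starts proline synthesis, at -1.39. Of 17 aminoacyl-tRNA synthetases 8 rose and 1, Qars, fell with siLincp21 in lincP21KD (7.47% and 4.39% of all tested genes). None passed with siHnrnpk (2 at an unadjusted p under 0.05 by limma, a level at which the share of all genes is not given here). Eprs, Yars and Aars rose with siP53 in lincP21KD (7.01% of all tested genes higher and 5.74% lower), and Lars fell with AdenoCre (12.9% and 6.24%). In hnRNPKKD Eprs, Iars, Yars, Lars, Nars, Mars1 and Vars rose and Gars fell with siP53 (19.3% and 19.2%). Yars, Mars1, Iars and Eprs rose there with siLincp21 (17.2% and 11.8%). Of 30 other ER genes 2 rose and none fell with AdenoCre (12.9% and 6.24% of all tested genes). In hnRNPKKD 8 rose and 2 fell with siP53 (19.3% and 19.2%), 9 rose and 1 fell with siLincp21 (17.2% and 11.8%), and 2 rose and 3 fell with siHnrnpk (14.1% and 12.8%). Of 16 cytosolic heat shock genes 6 rose and none fell with AdenoCre (12.9% and 6.24% of all tested genes), with Hspb1 at 0.71 and Cryab at 1.31. Their calls in hnRNPKKD went both ways. With siP53 Cryab, Hspb1, Dnajb4 and Hsf2 rose, and Bag3, Hspa1a, Dnajb1 and Dnaja1 fell (19.3% and 19.2% of all tested genes). With siLincp21 Cryab, Hspb1 and Dnajb1 rose, and Hsph1, Dnaja1, Hspa4, Bag3 and Hspd1 fell (17.2% and 11.8%). With siHnrnpk Cryab and Dnajb1 rose, and Dnajb4 and Hspa1b fell (14.1% and 12.8%). In lincP21KD Cryab fell by 0.41 with siP53 (7.01% and 5.74%). Dnajb4 rose by 0.33 and Hspa4 fell by 0.27 there with siLincp21 (7.47% and 4.39%). Of 9 stress sensors and eIF2alpha kinases, limma called none with AdenoCre (2 at an unadjusted p under 0.05, again without the share of all genes). Eif2ak2, the kinase PKR, rose in lincP21KD by 0.70 with siP53 and 0.53 with siLincp21, and in hnRNPKKD by 0.76 with siP53. Ern1, the ER stress sensor IRE1, rose in hnRNPKKD by 0.50 with siHnrnpk and 1.26 with siLincp21, and Atf6 fell by 0.60 with siLincp21. Other calls in this list were Mbtps1 at -0.32 with siLincp21 in lincP21KD and, in hnRNPKKD, Nfe2l2 at -0.55 and Eif2ak4 at 0.41 with siP53 and Mbtps2 at 0.58 and Mbtps1 at -0.35 with siHnrnpk.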

How the data were processed

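RNA of 30 samples was hybridised to Affymetrix arrays, and the deposited table holds log2 values made by the authors with RMA, per the submitters' processing notes. The RMA version and any scan batch are not given in the sources used here, and the number of arrays limits the precision. Of 45101 probe sets 34958 had 1 gene symbol, 932 several and 9211 none, and 34754 symbols were updated through RefSeq tables. Each gene was read from its probe set with the highest mean. The 40% of probe sets with the lowest mean (limit 4.544) were left out, which left 12675 genes.

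limma 3.58.1 in R 4.3.3 was fitted to all tested genes of an experiment, with time as a block for the virus effect, and p-values were adjusted by Benjamini-Hochberg over all tested genes, with calls at 0.05. The scripts were tested on simulated data. Members and lists were chosen with earlier results of these data known. Values per array are given for up to 6 called members with the largest difference in a comparison and for Trib3, Asns, Ddit3 and Hspa5, and companion genes by the smallest adjusted p. Pycr1, Dars, Eif2s1, Hsp90ab1 and Hsf1 of the companion lists had no matched probe set. The RAS experiment was not used here.

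Replicate numbers were checked as pairs by correlating deviations from group means. For siHnrnpk and siControl of hnRNPKKD the correlations were 0.2163, 0.1661 and 0.2091. In the other comparisons they ran from -0.2179 to 0.3591, with 0.3572, 0.3591 and -0.1856 for siP53 of hnRNPKKD. The labels name no pairs, so the reported fits did not pair the arrays, and the block was an alternative. Scaling, filter, probe set choice, variance model, array weights, replicate block, single-pair fits and leaving out arrays were tried as alternatives. Promoters were searched with Python 3.11.15.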

Additional observations from a re-analysis of the deposited data

Results flagged for a closer look

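Among the 5 differences between AdenoCre and AdenoGFP over time, 3 of 34 members had 1 time far from the others, all at 1 h. The values were -0.70 for Vldlr, -0.75 for Hsp90b1 and 1.10 for Sdf2l1, and chance alone marks about 1 in 20 such groups. The siP53 effect differed between hnRNPKKD and lincP21KD by 0.88 for Psat1, 0.82 for Stc2, 0.58 for Shmt2, 0.54 for Slc7a5 and 0.46 for Xbp1, each by limma's test of the difference. The siLincp21 effect differed in the same direction by 0.56 for Slc7a5 and 0.50 for Edem1. The experiments were separate sets of arrays, so any other difference between them cannot be told apart from these.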

How the results depend on the processing

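The medians of the ATF4-type genes kept their sign under every alternative for the virus effect (-0.32 to -0.22) and for the 5 siRNA comparisons. Over the results of called members and of Trib3, Asns, Ddit3 and Hspa5, leaving aside calls that other members gained, 1237 kept direction and call, 183 lost the call, 18 gained it and 5 reversed, and causes were not tested. For the virus effect, 9 members became 16 with trend and robust variances, 15 with array weights and 2 with no time block, and 3 to 8 when a time was left out (3 without 3 h, 4 without 6 h or 9 h). Its ER median of 0.07 was 0.12 with the mean of probe sets and 0.00299 to 0.08 without a time. For the virus effect the calls among all tested genes, 2427 as reported, ran from 1147 to 3350 over the alternatives. Its calls of Asns, Chac1, Slc7a5 and Herpud1 held in 8 of 13 alternatives each, and that of Slc38a2 in 7 of 13. The 3 AdenoCre slopes became 6 with trend and robust variances, 5 with array weights and 0 on log2(hours + 1), and 0 to 5 without a time (0 without 9 h, 1 without 1 h). Calls of this slope among all tested genes, 684 as reported, ran from 205 to 870 over the alternatives. For siP53 in lincP21KD the ATF4-type median was 0.24 with centred arrays and 0.23 with the replicate block, and the ER median was 0.022 with centred arrays, 0.0941 with the mean of probe sets and 0.12 with the block. Leaving out arrays gave 3 to 7 members, with medians of 0.225 to 0.30 and 0.045 to 0.0866. Calls among all tested genes, 1615 as reported, ran from 620 to 2254 over the alternatives and 620 to 1313 without an array. For siLincp21 in lincP21KD the ER median was 0.0939 with array weights and 0.0723 with the replicate block, and leaving out arrays gave 5 to 15 members and ER medians of 0.0237 to 0.13. Calls among all tested genes, 1503 as reported, ran from 286 to 2430 over the alternatives and 286 to 1377 without an array. In hnRNPKKD siP53 called 30 members with array weights and 14 to 25 without an array, with ATF4-type medians of 0.41 to 0.56. Calls among all tested genes there, 4888 as reported, ran from 3311 to 8869 over the alternatives and 3821 to 6553 without an array. With the mean of probe sets siLincp21 medians were 0.51 and 0.10. For siHnrnpk the count of 10 became 17 with the mean of probe sets, 21 with array weights and 17 with only the groups compared, the medians with the mean of probe sets were 0.27 and -0.11, and leaving out arrays gave 8 to 10 members and ATF4-type medians of 0.25 to 0.43. Calls among all tested genes for siHnrnpk, 3408 as reported, ran from 2391 to 5754 over the alternatives. Between experiments the siP53 count was 22 and the siLincp21 count 9 with array weights, and without an array they were 0 to 13 and 1 to 2, with siLincp21 ER medians of 0.0118 to 0.11. Over the alternatives calls among all tested genes ran from 936 to 6264 for the siP53 effect and 388 to 2798 for the siLincp21 effect. Ddit3 reversed to 0.0266 for the virus effect with the mean of probe sets. For siP53 in hnRNPKKD it ranged from -0.50 to 0.37 without an array (0.09 without siP53 1, 0.08 without siControl 2, 0.04 without siControl 3, 0.37 without siP53 3). The replicate block called 11 members for siHnrnpk, 8 and 14 in lincP21KD, 20 and 16 for siP53 and siLincp21 in hnRNPKKD. For siLincp21 in hnRNPKKD calls among all tested genes, 3678 as reported, ran from 2827 to 5662 over the alternatives. Array weights stopped before full convergence in some fits.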

Other observations

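Probe sets of a member did not always read alike. With siHnrnpk, another Edem1 probe set had a log2 difference of -1.72 in a fit over probe sets (limma adjusted p = 1.66e-05), against -0.05 for the probe set used. Of the 34 members 25 have more than 1 probe set, 80 in all.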
